A study of Mus musculus with 17 samples.

Results

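Transcript levels were compared between the diaphragm of mice that carried LLC tumors and received rFibcd1 (LLC + rFibcd1, n = 4) and the diaphragm of tumor-free mice that received mock injections (Control, n = 5), 9 of the 17 mice sequenced. The groups were taken from the sample titles. A gene was kept if 3 or more of the 17 samples had 1 TPM or more, which left 13305 of 47643 gene symbols. All mice were male C57BL/6J, aged 4 months, with no transgene. LLC (Lewis lung carcinoma) is a mouse lung cancer cell line of the C57BL/6 background that causes muscle wasting, and its cells were implanted under the skin of the flanks, so the tumor host keeps its immune system. Fibcd1 is a membrane protein with a fibrinogen-like domain whose C-terminal part is shed. rFibcd1, its recombinant C-terminal fragment, was injected into the peritoneal cavity, which the diaphragm borders. Mock mice received the albumin-containing vehicle. The groups compared differ in the tumor and in the injection, and the parts of these in a difference cannot be told apart within this comparison. The mice with a tumor and mock injections (LLC, n = 3) and the mice with rFibcd1 and no tumor (Control + rFibcd1, n = 5) are therefore given beside the main genes described. The comparison asks which transcripts of the diaphragm are away from the tumor-free level in tumor-bearing mice that were given rFibcd1.

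The recovered depth of the 9 libraries was 50.8 to 54.6 M reads, and 11798 to 12783 genes per mouse had at least 1 TPM (a level normalized for gene length and library depth). Mitochondrially encoded transcripts made up 45.9 to 48.4% of TPM in Control and 43.7 to 46.5% in LLC + rFibcd1. The diaphragm is a skeletal muscle of mixed fiber types, and its defining transcripts were abundant in all 9 mice, with Acta1 (skeletal actin) at 19855 to 23855 TPM, Ckm (muscle creatine kinase) at 4524 to 5701 TPM, Myh1 (fast myosin of 2X fibers) at 3071 to 5154 TPM and Myh7 (slow myosin) at 236 to 456 TPM. The level of Fibcd1 was too low to test, at 0.0352 TPM or less in each of the 9 mice. The labels do not say whether the mice came from separate litters or cages, so p-values measure the spread between these animals.

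LLC + rFibcd1 differed from Control in 410 (3.08%) of the 13305 genes at an adjusted p under 0.05 by limma. With the 9 mice alone 260 genes were called. Dunn's test after a Kruskal-Wallis test over the 4 groups called 0 genes after adjustment and 1688 at an unadjusted p under 0.05. In LLC + rFibcd1, 276 genes (2.07%) were higher and 134 (1.01%) lower. Most changes were small on the log2(TPM + 1) scale used throughout, with a median of 0.40 for the higher and -0.36 for the lower genes. The change was under 0.5 in 272 genes, above 1 in 30 and below -1 in 8. Of the 410 genes, 386 separated the 4 from the 5 mice without overlap, against 1181 (8.88%) of all genes tested. From the same fit, LLC against Control called 35.8% of genes, LLC + rFibcd1 against Control + rFibcd1 8.06% and LLC + rFibcd1 against LLC 0.113%. These contrasts share mice and are set side by side for the genes and lists named below. Among the 276 higher genes, LLC + rFibcd1 replicate 3 was the highest of its group in 106 and replicate 4 in 21, and replicate 4 was the lowest in 117. Higher genes made up 67.3% of those called in the deposited values. That share was 55.3% with median-ratio scaling, 47.5% where mitochondrially encoded genes were removed before rescaling, and 39.1% with quantile normalization. The count of 410 was 264, 227, 207 and 251 without Control replicates 1, 3, 4 and 5, and 246, 208 and 167 without LLC + rFibcd1 replicates 1, 2 and 3, and 427 genes were higher without Control + rFibcd1 replicate 1.

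**Figure D1:**
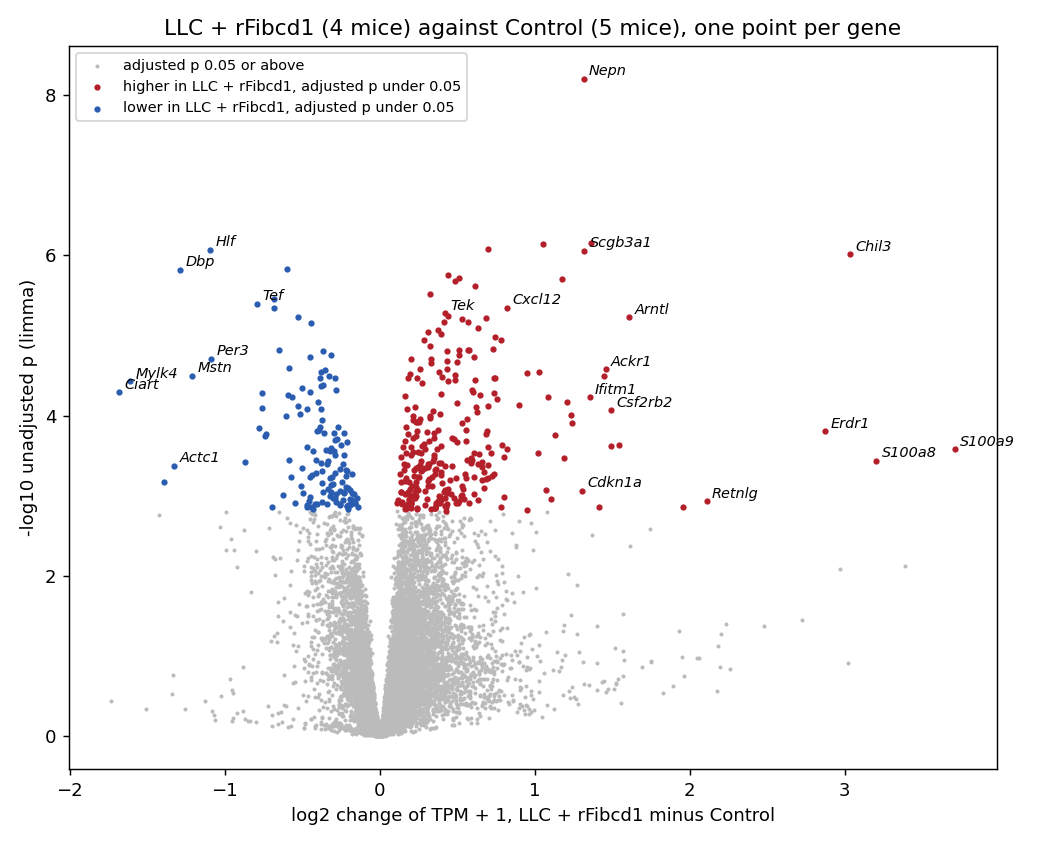
Each point is a gene, with the log2 change of TPM + 1 from Control (5 mice) to LLC + rFibcd1 (4 mice) on the horizontal axis and -log10 of the unadjusted limma p on the vertical axis. The 276 genes in red were higher and the 134 in blue lower at an adjusted p under 0.05. S100a9, S100a8 and Chil3 lie farthest to the right among the called genes, the clock genes Ciart, Dbp, Hlf, Per3 and Tef lie on the left, and Arntl lies on the right.

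Genes of the circadian clock and its outputs fell in LLC + rFibcd1, and Arntl rose. In this clock, BMAL1 (the product of Arntl), with CLOCK or NPAS2, binds E-box sequences and activates the Per and Cry genes, the Nr1d (Rev-erb) genes and the genes of the PAR bZIP factors Dbp, Tef and Hlf. PER and CRY proteins then repress BMAL1 and CLOCK, the Rev-erb proteins repress Arntl, and the PAR bZIP factors act on D-box sequences of further genes. Skeletal muscle has its own clock, in which Arntl transcripts peak when those of Dbp are low. The hour of dissection, with which these transcripts vary, is not given in the sources used here, so an hour that differed between groups cannot be told apart from the tumor and rFibcd1.

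The upstream sequences of the listed clock genes were searched for the letters CACGTG (E-box, its own reverse complement) and TTATGTAA, TTACATAA or TTACGTAA (D-box), on both strands. Of the 20 clock genes listed, 17 have an entry in the RefSeq promoter table (build GRCm38.p6), and the 250 bases before the start of transcription were read. Genes can have several entries, and a gene was counted if any of its entries matched. CACGTG was present in 5 of the 17 genes (Ciart, Tef, Bhlhe41, Cry1 and Per1) and in 6.86% of all 27025 genes with an entry, and a D-box in 1 of the 17 (Per3) and in 1.095% of genes. The sequences of 4 called genes with a match are shown 5′ to 3′ on the strand of the gene, with the matches in capitals. They are Ciart (chr3:95882229-95882478, minus strand, 3 E-boxes), the downstream of the 2 starts listed for Tef (chr15:81811164-81811413, plus strand, 1 E-box), Bhlhe41 (chr6:145865421-145865670, minus strand, 1 E-box) and Per3 (chr4:151044666-151044915, minus strand, 2 D-boxes). The 3 matches of Ciart begin 116, 58 and 44 bases before the start. A match of letters is a description of the sequence and not a site of binding.
Ciart: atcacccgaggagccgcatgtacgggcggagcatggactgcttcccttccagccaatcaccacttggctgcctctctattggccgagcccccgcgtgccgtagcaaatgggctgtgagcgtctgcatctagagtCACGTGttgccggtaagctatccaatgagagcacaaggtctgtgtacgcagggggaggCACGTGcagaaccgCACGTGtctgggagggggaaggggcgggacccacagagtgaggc
Tef: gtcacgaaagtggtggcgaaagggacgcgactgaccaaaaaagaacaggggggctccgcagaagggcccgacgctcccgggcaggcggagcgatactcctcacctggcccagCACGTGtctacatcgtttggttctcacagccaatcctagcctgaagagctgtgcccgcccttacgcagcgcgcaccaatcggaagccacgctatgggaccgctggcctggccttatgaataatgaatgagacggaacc
Bhlhe41: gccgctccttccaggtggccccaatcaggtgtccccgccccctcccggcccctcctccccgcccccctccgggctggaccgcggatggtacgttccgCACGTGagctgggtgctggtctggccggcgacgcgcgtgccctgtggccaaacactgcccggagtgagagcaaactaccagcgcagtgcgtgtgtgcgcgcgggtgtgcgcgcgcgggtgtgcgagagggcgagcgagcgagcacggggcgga
Per3: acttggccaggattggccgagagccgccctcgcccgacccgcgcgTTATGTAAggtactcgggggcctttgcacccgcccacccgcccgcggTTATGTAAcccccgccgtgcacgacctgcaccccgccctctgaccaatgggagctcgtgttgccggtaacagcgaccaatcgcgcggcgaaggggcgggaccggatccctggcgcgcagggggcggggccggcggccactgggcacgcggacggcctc

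Arntl, the activating arm of the loop, rose. It was at 2.73, 2.06, 5.72, 3.403 and 1.77 TPM in the 5 Control mice and at 11.1, 16.7, 8.27 and 9.42 TPM in the 4 LLC + rFibcd1 mice, so the lowest treated mouse was above the highest Control mouse. The means were 3.14 ± 1.58 and 11.4 ± 3.76 TPM (SD, n = 5 and 4), a 3.63-fold difference. The log2 change was 1.61 ± 0.24 (SE; adjusted p = 0.00333). Mice with the tumor alone had 2.88 to 4.72 TPM and mice with rFibcd1 alone 2.28 to 3.38 TPM. Npas2, a relative of Clock and a partner of BMAL1, was below the filter and not tested, with 0.158, 0.0993, 0.357, 0.184 and 0.156 TPM in Control and 0.667, 1.63, 0.494 and 0.753 TPM in LLC + rFibcd1, values that do not overlap. Clock, the other partner, was at 2.65 to 3.71 and 3.62 to 6.16 TPM (log2 change 0.40 ± 0.13, adjusted p = 0.109).

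Of the repressors, Per2 and Per3 fell. Per3 (chromosome 4, 151003652 to 151044665) was at 13.9, 14.8, 8.42, 12.8 and 12.998 TPM in Control and 6.04, 3.34, 6.81 and 5.63 TPM in LLC + rFibcd1, with no overlap, and fell by 1.09 ± 0.18 (SE; adjusted p = 0.00522). Per2 went from 14.98 ± 7.01 to 4.898 ± 2.25 TPM (SD, n = 5 and 4) and fell by 1.39 ± 0.33 (adjusted p = 0.0325), although Control replicate 3, at 6.48 TPM, lay within the range of the treated mice. Cry2 fell by 0.45 ± 0.10 (adjusted p = 0.0297), also with overlap, and the Rev-erb gene Nr1d2 by 0.65 ± 0.10 (adjusted p = 0.0048), with 43.8 to 62.5 TPM in Control and 30.7 to 38.5 TPM in LLC + rFibcd1. Per1 (-0.56 ± 0.29, adjusted p = 0.301), Cry1 (-0.39 ± 0.16, adjusted p = 0.193) and Nr1d1 (0.14 ± 0.25, adjusted p = 0.788) did not pass the test. In all, 11 of the 12 core clock genes passed the filter, of which 1 was higher and 4 were lower, against 2.07% and 1.01% of all genes.

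**Figure D2:**
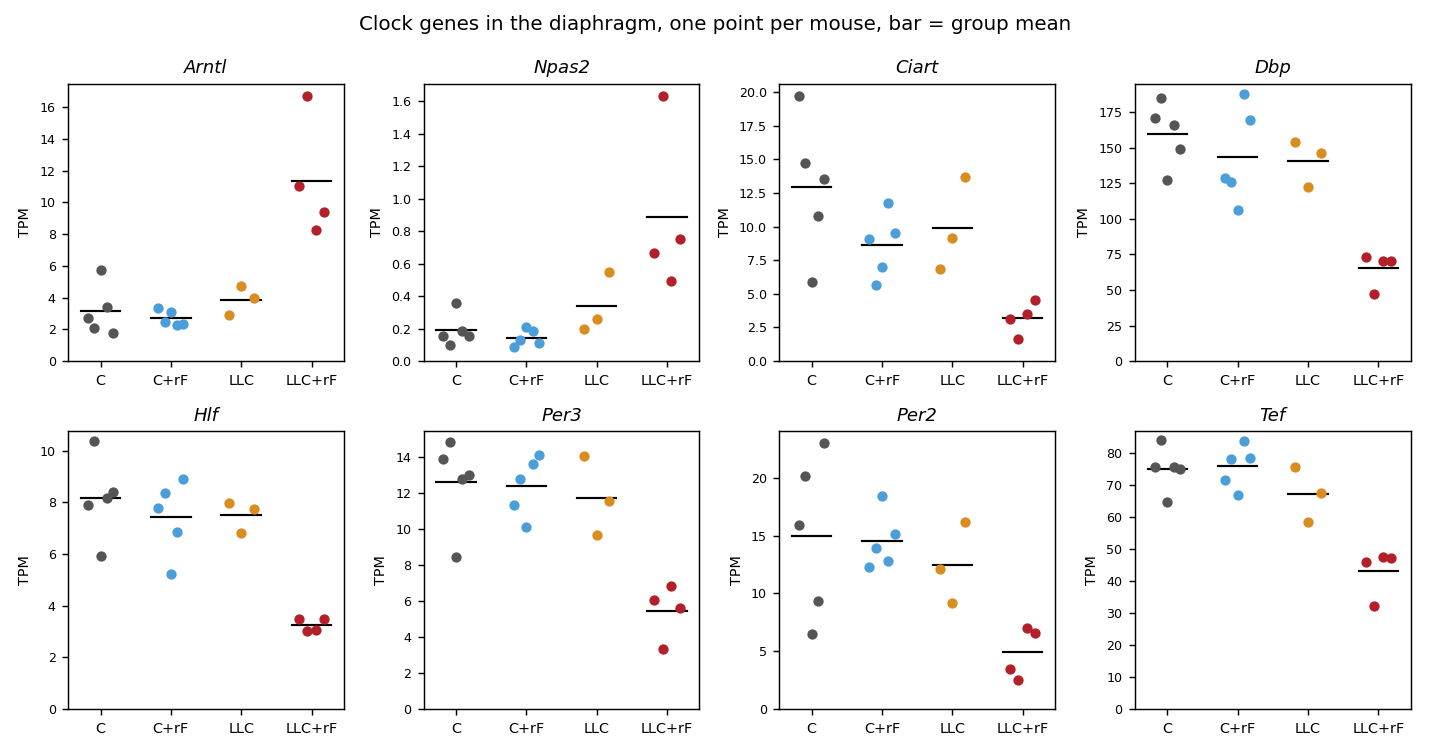
TPM of 8 clock genes in each of the 17 mice, with Control (C, n = 5), Control + rFibcd1 (C+rF, n = 5), LLC (n = 3) and LLC + rFibcd1 (LLC+rF, n = 4) along the horizontal axis and the black bar at the group mean. For Arntl and Npas2 the LLC + rFibcd1 mice lie above the Control mice, and for Ciart, Dbp, Hlf, Per3 and Tef they lie below them, whereas for Per2 Control replicate 3 lies within their range.

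Most clock output genes fell. Of the 8 genes in this list, all of which were tested, 6 were lower and 0 higher, against 1.01% and 2.07% of all genes. The median log2 change was -0.78 against 0.059 for all genes. Dbp (chromosome 7, 45705088 to 45710203), a transcription factor whose RNA is driven directly by the clock, was at 171, 185, 128, 166 and 149 TPM in Control and 73.4, 46.98, 70.1 and 70.3 TPM in LLC + rFibcd1. Every treated mouse was below every Control mouse, and Dbp fell by 1.29 ± 0.17 (SE; adjusted p = 0.00211). Hlf, of the same family, was at 7.896, 10.4, 5.93, 8.16 and 8.41 TPM in Control and 3.48, 3.01, 3.04 and 3.47 TPM in LLC + rFibcd1, with the treated mice close to each other, and fell by 1.09 ± 0.14 (adjusted p = 0.00185). Tef, the remaining family member, went from 75.1 ± 6.899 to 43.2 ± 7.37 TPM (SD, n = 5 and 4; 1.74-fold lower) and fell by 0.79 ± 0.11 (adjusted p = 0.00316). Ciart, a repressor of the clock whose 3 E-boxes are shown above, had the largest decrease of all named genes and fell by 1.68 ± 0.30 (adjusted p = 0.00777), from 19.7, 14.8, 5.86, 10.8 and 13.6 TPM to 3.14, 1.66, 3.54 and 4.54 TPM. Usp2, a deubiquitinating enzyme with a daily rhythm, fell by 0.76 ± 0.14 (adjusted p = 0.00995), and Bhlhe41, an E-box repressor, by 0.74 ± 0.15 (adjusted p = 0.0153). The repressor Nfil3 (0.43 ± 0.42, adjusted p = 0.591) and Bhlhe40 (0.06 ± 0.16, adjusted p = 0.866) did not pass.

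Control replicate 3 stood apart among the 5 Control mice, with the highest Arntl (5.72 TPM) and Nr1d1 (146 TPM) and the lowest Per1 (16.5 TPM), Per2 (6.48 TPM), Per3 (8.42 TPM), Ciart (5.86 TPM), Hlf (5.93 TPM) and Dbp (128 TPM). Within LLC + rFibcd1, replicate 2 had the highest Arntl (16.7 TPM) and the lowest Per1, Per2, Per3, Dbp, Hlf, Tef, Ciart and Usp2. The lowest Arntl of the group, 8.27 TPM, was in replicate 3. Against LLC, which also carried tumors, Dbp and Hlf differed by -1.12 and -1.001 (adjusted p = 0.0383 and 0.0334), and Arntl, Per3 and Tef by 1.32, -1.001 and -0.63 (adjusted p = 0.0734, 0.0714 and 0.0714). LLC against Control was past the threshold for Nr1d2 only among the clock genes tested (-0.40, adjusted p = 0.018), with -0.17 for Dbp and 0.29 for Arntl. The interaction of tumor and rFibcd1 had adjusted p of 0.14 for Hlf, 0.166 for Arntl and 0.18 for Dbp. Arntl, Per3, Nr1d2, Dbp, Hlf, Tef, Ciart and Usp2 passed in all 17 fits that left out a mouse. Bhlhe41 passed in 16 (adjusted p up to 0.0516; not without LLC + rFibcd1 replicate 2). Per2 passed in 12 (adjusted p up to 0.101; not without Control replicates 1, 2 or 5, or LLC + rFibcd1 replicates 1 or 2). Cry2 passed in 10 (adjusted p up to 0.0887; not without Control replicates 1, 2, 4 or 5, or LLC + rFibcd1 replicates 2, 3 or 4). With the 9 mice of the compared groups alone, Per2 and Cry2 did not pass, and neither did Per2 with no filter on low values or with array weights.

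**Figure D3:**
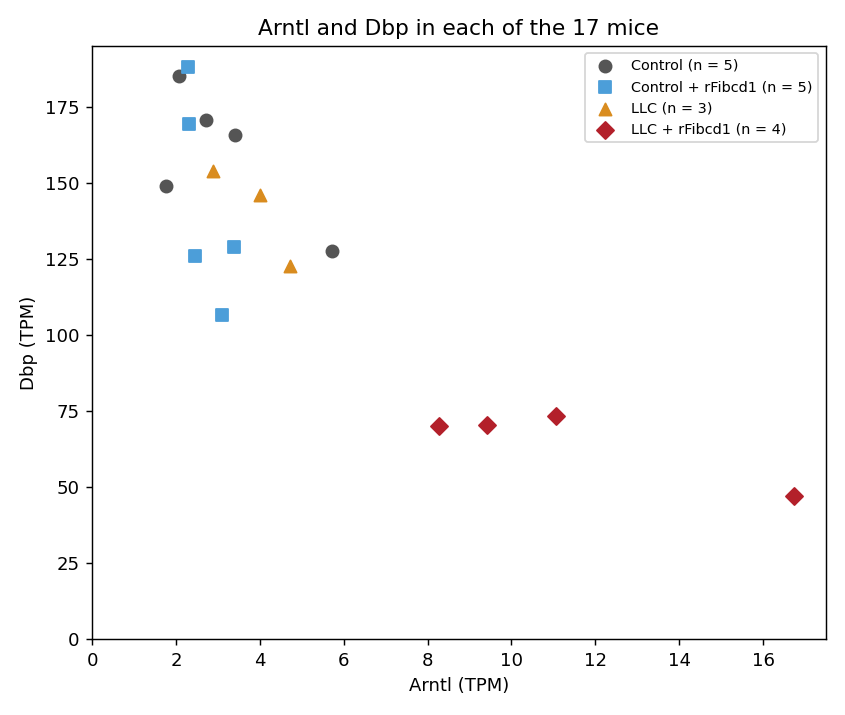
TPM of Arntl (horizontal axis) and Dbp (vertical axis) in each of the 17 mice, by group. The 4 LLC + rFibcd1 mice lie apart at the lower right, with Arntl from 8.27 to 16.7 TPM and Dbp from 47.0 to 73.4 TPM, and the mice of the other groups lie at the upper left.

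Among called genes, the 3 largest increases were in the neutrophil and myeloid genes S100a9, S100a8 and Chil3. Neutrophils are short-lived granulocytes of the blood that carry the calcium-binding alarmins S100A8 and S100A9 as much of their cytosolic protein, are released under G-CSF and move to tissue through CXCR2. In bulk tissue, more cells of a type and more RNA per cell cannot be told apart. Of the 25 neutrophil genes listed, 13 passed the filter. Retnlg, Cxcr2, Il1b and Stfa2l1 passed it only through tumor-bearing mice, as did Chil3 and the red cell gene Slc4a1 described below, so that their call is no measure of the list. Of the other 9, 3 were higher (S100a9, S100a8 and Csf3r; 2.07% of all genes were) and 0 lower. S100a9 was at 7.55, 0.532, 5.36, 1.99 and 4.996 TPM in Control and at 53.7, 125, 40.8 and 34.2 TPM in LLC + rFibcd1, and S100a8, its partner, at 3.67, 0.171, 2.41, 0.692 and 3.76 and 23.4, 56.9, 17.4 and 14.2 TPM. Both separated the groups, with the highest value in LLC + rFibcd1 replicate 2 and the lowest in Control replicate 2. The log2 changes were 3.71 ± 0.78 and 3.20 ± 0.70 (SE; adjusted p = 0.0197 and 0.0238), and LLC had 25.5 to 61.7 and 12.2 to 30.6 TPM.

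The receptor genes Csf3r and Cxcr2 also rose. Csf3r (chromosome 4, 126024550 to 126044440), the receptor of G-CSF, was at 1.202, 0.846, 0.868, 0.765 and 0.860 TPM in Control and 4.25, 9.13, 3.12 and 3.33 TPM in LLC + rFibcd1, 5.46-fold higher in the mean, with a log2 change of 1.54 ± 0.32 (SE; adjusted p = 0.0189). It was at 3.43 to 5.62 TPM in LLC and 0.623 to 3.59 TPM in Control + rFibcd1. Cxcr2, a receptor of CXC chemokines, was at 0.0394 to 0.326 and 0.849 to 2.84 TPM (1.13 ± 0.23, adjusted p = 0.0158), with 1.22 to 2.198 TPM in LLC and 0.0246 to 1.13 TPM in Control + rFibcd1. The cytokine Il1b was at 0.626, 0.208, 0.285, 0.168 and 0.369 TPM in Control and 2.37, 4.4997, 1.71 and 2.38 TPM in LLC + rFibcd1 (1.45 ± 0.25, adjusted p = 0.00614), with 1.37 to 3.81 TPM in LLC and 0.144 to 1.09 TPM in Control + rFibcd1. Retnlg, a secreted protein of neutrophils, rose by 2.11 ± 0.53 (adjusted p = 0.0436), and the stefin gene Stfa2l1, which has close copies that could share its reads, by 1.09 ± 0.20 (adjusted p = 0.00812). The definitive surface marker Ly6g was under the filter, listed at 0 in 4 Control mice and at 0.373, 0.508, 0.330 and 0.0832 TPM in LLC + rFibcd1. The granule gene Mpo was at 0 in 4 Control mice and in 3 LLC + rFibcd1 mice, and Elane was at 0 to 0.0450 and 0.0852 to 0.390 TPM. Lcn2 (0.33 ± 0.28), Mmp9 (0.47 ± 0.27) and G0s2 (-0.46 ± 0.31), which cells other than neutrophils also express, did not pass (adjusted p = 0.53, 0.353 and 0.426).

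Chil3, a chitinase-like protein of macrophages and neutrophil precursors, was at 0.244, 0.146, 0.793, 0.221 and 0.228 TPM in Control, at 1.38, 3.05 and 1.85 TPM in LLC and at 11.4, 9.61, 15.7 and 5.02 TPM in LLC + rFibcd1. The 4 treated mice were above all LLC mice and above all Control mice, with a log2 change of 3.04 ± 0.38 (SE; adjusted p = 0.00185) from Control and of 1.83 (adjusted p = 0.12) from LLC, which did not pass. Control + rFibcd1 ranged from 0.144 to 4.21 TPM. Of the 22 monocyte and macrophage genes that passed the filter, 4 did so only through tumor-bearing mice, Chil3 among them. Of the other 18, 0 were called (3.08% of all genes were). The macrophage markers Cd68 (0.44 ± 0.37, adjusted p = 0.52), Adgre1 (0.44 ± 0.35, adjusted p = 0.505), Lyz2 (0.58 ± 0.51, adjusted p = 0.543) and the monocyte receptor Ccr2 (0.45 ± 0.26, adjusted p = 0.356) did not pass.

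The shared beta chain of the receptors of GM-CSF, IL-3 and IL-5 is encoded by Csf2rb, and the IL-3 receptor has a second beta chain in mice, Csf2rb2, whose sequence is so close that their reads could be divided. Csf2rb2 was at 2.04, 2.79, 1.03, 1.21 and 1.04 TPM in Control and 4.94, 8.18, 9.82 and 3.39 TPM in LLC + rFibcd1 (1.49 ± 0.28, adjusted p = 0.0103), and Csf2rb at 1.52 to 4.06 and 4.81 to 13.6 TPM (1.41 ± 0.36, adjusted p = 0.0465). Of the alpha chains, Csf2ra (0.80 ± 0.28, adjusted p = 0.129) and Il3ra (0.44 ± 0.15, adjusted p = 0.134) did not pass. Il5ra passed the filter only through tumor-bearing mice. Of the other 4 genes of this list, 2 were called here and 4 in LLC against Control, against 3.08% and 35.8% of all genes, and Csf2rb2 averaged 7.39 TPM in LLC. In LLC + rFibcd1 against LLC 0 of the 4 were called, and 0 had an unadjusted p under 0.05, against 0.113% and 3025 of all 13305 genes.

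**Figure D4:**
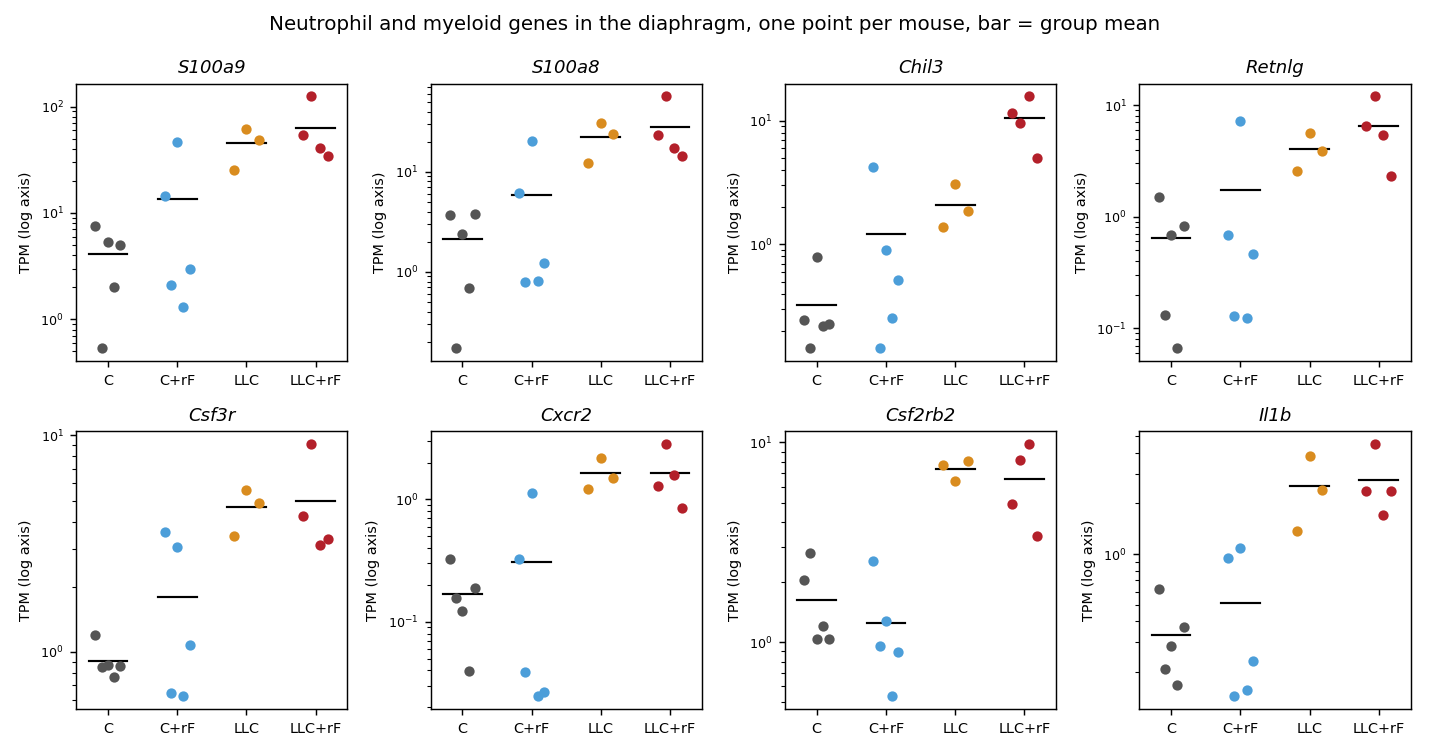
TPM on a log axis of 8 neutrophil and myeloid genes in each of the 17 mice, with the groups in the order of the clock plot and the black bar at the group mean. In all 8 genes the 4 LLC + rFibcd1 mice lie above the 5 Control mice, and for Chil3 they also lie above the 3 LLC mice. S100a9 in Control + rFibcd1 spans 1.29 to 46.3 TPM.

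Il1b, Chil3, Csf2rb2 and Stfa2l1 passed in all 17 fits that left out a mouse. Each of these fits kept the filter of the 17 mice. Il1b, Chil3, Stfa2l1, Cxcr2, Retnlg and Slc4a1 passed that filter only through tumor-bearing mice, so these fits add no support for their calls. S100a9 passed in 15 (adjusted p up to 0.0669; not without Control replicate 4, or LLC + rFibcd1 replicate 2). S100a8 passed in 13 (adjusted p up to 0.0753; not without Control replicate 4, or LLC + rFibcd1 replicates 1, 2 or 3). Csf3r passed in 16 (adjusted p up to 0.0582; not without LLC + rFibcd1 replicate 2). Cxcr2 passed in 15 (adjusted p up to 0.0516; not without LLC + rFibcd1 replicates 2 or 3). Retnlg passed in 5 (adjusted p up to 0.124; only without Control + rFibcd1 replicates 1, 2, 3 or 4, or LLC + rFibcd1 replicate 4). Csf2rb passed in 4 (adjusted p up to 0.151; only without Control replicate 2, or Control + rFibcd1 replicates 1 or 4, or LLC + rFibcd1 replicate 4). Retnlg was not called under any of the 3 rescalings, and Csf2rb not without mitochondrially encoded genes. Csf2rb and Stfa2l1 did not pass with the 9 mice alone. Retnlg, Csf2rb and Slc4a1, the red cell gene below, did not pass with no filter or with a pseudocount of 0.1 TPM, nor did Csf2rb where the variance was fitted with no expression trend, or Retnlg and Slc4a1 with the level of the B cell list as a covariate. Summed over the 8 listed red cell genes, TPM was 3848 to 20313 in Control and 14773 to 20956 in LLC + rFibcd1. Among these, Slc4a1, the anion exchanger of the red cell membrane, was at 0.115 to 0.773 TPM in Control and 1.62 to 2.504 TPM in LLC + rFibcd1. The log2 change was 1.07 ± 0.26 (adjusted p = 0.0379), and it passed in 9 (adjusted p up to 0.097; not without Control replicates 2, 3, 4 or 5, or LLC + rFibcd1 replicates 1, 2, 3 or 4) of the 17 fits. The part of blood content in the neutrophil result was not tested.

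Of the 13 endothelial genes tested, 4 rose (2.07% of all genes did), 0 fell and 9 did not pass, with a median of 0.29 against 0.059 for all genes. Tek, the angiopoietin receptor, was at 13.003, 12.7, 14.1, 14.2 and 13.04 TPM in Control and 18.97, 19.99, 19.03 and 15.5 TPM in LLC + rFibcd1, and rose by 0.42 ± 0.061 (SE; adjusted p = 0.00333). Pecam1, an adhesion molecule of endothelial junctions, was at 46.1 to 55.9 TPM in Control and 63.3 to 75.1 TPM in LLC + rFibcd1. It rose by 0.41 ± 0.062 (adjusted p = 0.00333) and was at 60.1 to 65.2 TPM in LLC and 46.7 to 51.6 TPM in Control + rFibcd1. Esam, a junction protein, rose by 0.40 ± 0.061 (adjusted p = 0.00399), and Vwf, the von Willebrand factor of larger vessels and platelets, by 0.78 ± 0.12 (adjusted p = 0.00435). The junctional cadherin Cdh5 was higher by 0.24 (adjusted p = 0.0916) and the VEGF receptors Kdr and Flt1 by 0.084 and 0.27 (adjusted p = 0.744 and 0.111), so these did not pass. The summed TPM of the 13 genes was 317 to 351 in Control, 341 to 386 in LLC and 396 to 427 in LLC + rFibcd1. All 4 called genes passed in every fit that left out a mouse and under each rescaling.

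Ackr1, Cxcl12 and Ifitm1 rose as well. Ackr1, the atypical chemokine receptor that marks venules and also lies on red cells, was at 2.38, 2.99, 1.46, 2.05 and 2.56 TPM in Control and 6.49, 12.7, 9.83 and 4.69 TPM in LLC + rFibcd1 (1.46 ± 0.24, adjusted p = 0.00612), with 6.88 to 9.64 TPM in LLC and 1.39 to 4.03 TPM in Control + rFibcd1. Of the 6 venule adhesion genes tested, it was the only one called. Selp, P-selectin, was higher by 1.01 (adjusted p = 0.141), and Icam1 and Vcam1 were at 0.46 ± 0.22 and -0.0067 ± 0.21 (adjusted p = 0.258 and 0.988). Cxcl12, the chemokine that binds CXCR4, was at 40.9, 46.1, 48.6, 47.3 and 44.02 TPM in Control and 104, 75.3, 84.7 and 64.3 TPM in LLC + rFibcd1, with 57.5 to 66.2 TPM in LLC, and rose by 0.82 ± 0.12 (adjusted p = 0.00317). It was the only chemokine called of 17 tested. Ifitm1, an interferon-inducible membrane protein, rose by 1.35 ± 0.25 (adjusted p = 0.00812), the only call among 4 Ifitm genes. Of 17 interferon-stimulated genes, Rsad2 (viperin) alone was called (0.64 ± 0.16, adjusted p = 0.0433), and among the 17 fits that left out a mouse it passed in 5 (adjusted p up to 0.121; only without Control replicate 3, or Control + rFibcd1 replicates 1 or 4, or LLC replicates 1 or 3). Rsad2 did not pass with no filter, array weights, quantile normalization or the B cell covariate. Ackr1, Cxcl12 and Ifitm1 passed in all 17. With 2.07% of all genes higher, a single call in each of these short lists is a result about that gene and not about its list.

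Of the matrix genes, Col4a1, Col4a2, Eln and Postn rose, and the fibrillar collagens were not called. Col4a1 and Col4a2, which encode the 2 chains of the common type IV collagen, rose by 0.47 ± 0.10 and 0.57 ± 0.091 (SE; adjusted p = 0.0166 and 0.0048), with Col4a2 at 41.5 to 55.5 TPM in Control and 63.1 to 73.1 TPM in LLC + rFibcd1. The genes lie head to head and their 5′ ends overlap in the annotation. Eln, elastin, was at 10.3, 16.2, 18.9, 12.3 and 17.2 TPM in Control and 25.4, 39.3, 26.4 and 33.8 TPM in LLC + rFibcd1. It rose by 1.02 ± 0.22 (adjusted p = 0.0209) and was at 21.03 to 24.2 TPM in LLC and 8.54 to 18.6 TPM in Control + rFibcd1. The matricellular protein Postn rose by 0.63 ± 0.14 (adjusted p = 0.0245), to a mean of 7.68 TPM against 11.5 TPM in LLC. These were the 4 calls of 25 matrix genes (2.07% of all genes rose), whose median was 0.047 and turned below 0 under each rescaling (-0.0083, -0.031 and -0.0011). Col4a2 passed in all 17 fits that left out a mouse. Col4a1 passed in 15 (adjusted p up to 0.0616; not without LLC + rFibcd1 replicates 2 or 3). Eln passed in 15 (adjusted p up to 0.0697; not without Control replicate 4, or LLC + rFibcd1 replicate 2). Postn passed in 12 (adjusted p up to 0.0695; not without Control replicates 4 or 5, or LLC + rFibcd1 replicates 2, 3 or 4). Mmp3, stromelysin, which cleaves matrix proteins, was at 1.66, 1.4999, 0.952, 0.490 and 1.197 TPM in Control and 4.099, 7.08, 3.63 and 5.62 TPM in LLC + rFibcd1 (1.49 ± 0.31, adjusted p = 0.019), and at 3.504 to 7.24 TPM in LLC and 0.437 to 4.13 TPM in Control + rFibcd1. It passed in 15 (adjusted p up to 0.0638; not without Control replicate 4, or LLC + rFibcd1 replicate 2) of those fits.

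Of the 18 acute phase and STAT3 genes, all tested, 4 rose (2.07% of all genes did), 0 fell and 14 did not pass, with a median of 0.65 against 0.059 for all genes. Il4ra, the receptor chain for IL-4 and IL-13, was at 6.22, 7.12, 5.36, 4.65 and 6.48 TPM in Control and 10.7, 12.7, 16.01 and 9.17 TPM in LLC + rFibcd1. It rose by 0.90 ± 0.17 (SE; adjusted p = 0.00975) and was at 11.5 to 15.6 TPM in LLC and 4.14 to 7.71 TPM in Control + rFibcd1. Osmr, the oncostatin M receptor, rose by 0.53 ± 0.10 (adjusted p = 0.0127), Timp1, an inhibitor of metalloproteinases, by 0.72 ± 0.17 (adjusted p = 0.0297), and Lrg1, a secreted glycoprotein of the acute phase, by 0.78 ± 0.20 (adjusted p = 0.0465). Saa3 (1.19 ± 0.53, adjusted p = 0.232), Hp (0.95 ± 0.76, adjusted p = 0.508), Socs3 (0.73 ± 0.32, adjusted p = 0.232) and Cebpd (0.63 ± 0.32, adjusted p = 0.298) varied more between mice and did not pass. Il4ra and Osmr passed in all 17 fits that left out a mouse. Timp1 passed in 12 (adjusted p up to 0.0925; not without Control replicates 3, 4 or 5, or LLC + rFibcd1 replicates 2 or 4). Lrg1 passed in 5 (adjusted p up to 0.132; only without Control replicate 2, or Control + rFibcd1 replicates 1 or 4, or LLC replicates 1 or 2). Osmr and Timp1 did not pass with the 9 mice alone, and Lrg1 did not with no filter, no expression trend or the B cell covariate.

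Nepn had the smallest adjusted p of the comparison. It encodes nephrocan, a secreted leucine-rich repeat protein, and was at 1.25, 1.201, 1.88, 1.66 and 1.44 TPM in Control, 2.75, 4.29 and 3.48 TPM in LLC and 5.51, 4.51, 6.19 and 4.55 TPM in LLC + rFibcd1, so that the 3 groups did not overlap and LLC lay between. Its log2 change from Control was 1.32 ± 0.11 (SE; adjusted p = 8.31e-05). Scgb3a1, a secretoglobin, was at 0.333, 0.464, 1.54, 0.535 and 0.692 TPM in Control and 3.33, 3.87, 2.86 and 2.69 TPM in LLC + rFibcd1. It rose by 1.32 ± 0.17 (adjusted p = 0.00185). Both passed in all 17 fits that left out a mouse. Erdr1, which has no single position in the annotation and could share reads between copies, was at 6.12, 53.7, 5.76, 17.1 and 4.898 TPM in Control, with replicate 2 far above the others, and 91.9, 83.02, 111 and 74.96 TPM in LLC + rFibcd1 (adjusted p = 0.015). It did not pass without LLC + rFibcd1 replicate 3 (adjusted p = 0.0532) or with the 9 mice alone.

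Mylk4, Mstn, Actc1 and Klhl33 fell. Mylk4, a kinase of the myosin light chain kinase family, was at 144, 136, 86.4, 70.8 and 144 TPM in Control, 92.004, 61.7 and 95.3 TPM in LLC and 32.8, 20.8, 38.6 and 62.3 TPM in LLC + rFibcd1, and fell by 1.61 ± 0.28 (SE; adjusted p = 0.00633). Mstn (chromosome 1, 53061640 to 53068079), myostatin, the secreted inhibitor of muscle growth, was at 29.03, 21.5, 19.6, 20.8 and 18.1 TPM in Control and 8.304, 6.15, 8.26 and 13.6 TPM in LLC + rFibcd1, 2.41-fold lower, and fell by 1.21 ± 0.21 (adjusted p = 0.00614). It was at 12.1 to 15.1 TPM in LLC and 21.1 to 37.3 TPM in Control + rFibcd1, and was the only gene called of 12 tested in the myostatin and activin list (1.01% of all genes fell), which is no result about the list. Actc1, the actin of heart and of developing muscle, was at 209, 205, 455, 289.7 and 356 TPM in Control and 93.6, 93.3, 161 and 122 TPM in LLC + rFibcd1, and fell by 1.33 ± 0.29 (adjusted p = 0.0251). It was at 99.5 to 193 TPM in LLC and 254 to 677 TPM in Control + rFibcd1. Klhl33, a kelch-family gene, fell by 0.68 ± 0.10 (adjusted p = 0.00294), with 97.6 to 117 TPM in Control, 56.4 to 75.8 TPM in LLC + rFibcd1 and 58.7 to 67.6 TPM in LLC. Mylk4, Mstn and Klhl33 passed in all 17 fits that left out a mouse. Actc1 passed in 12 (adjusted p up to 0.0759; not without Control replicates 3, 4 or 5, or LLC + rFibcd1 replicates 1 or 2).

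Of the 14 fast fiber genes tested, 4 fell (1.01% of all genes did) and 0 rose, with a median of -0.24, and of the 12 slow fiber genes 0 were called, with a median of 0.071 (-0.029 without LLC + rFibcd1 replicate 1). Mylpf, the phosphorylatable myosin light chain of fast fibers, was at 4885, 4998, 5427, 4767 and 5051 TPM in Control and 3921, 4093, 3369 and 4129.8 TPM in LLC + rFibcd1, without overlap, and fell by 0.38 ± 0.071 (SE; adjusted p = 0.0102). Casq1, the calcium store protein of fast fibers, fell by 0.38 ± 0.083 (adjusted p = 0.0243), the light chain gene Myl1 by 0.30 ± 0.071 (adjusted p = 0.0337) and the troponin gene Tnnt3 by 0.19 ± 0.047 (adjusted p = 0.0443). Among myosin heavy chain genes, the log2 change of Myh1 was -0.43 ± 0.12 (adjusted p = 0.0591), of Myh4 -0.11 ± 0.46 (adjusted p = 0.914), of Myh2 0.043 ± 0.13 (adjusted p = 0.881) and of Myh7 0.10 ± 0.18 (adjusted p = 0.794). Of 17 myofiber structure genes, 3 fell, namely the Z-disc genes Myoz1 (0.30 ± 0.075, adjusted p = 0.0419) and Tcap (0.34 ± 0.085, adjusted p = 0.0443) and creatine kinase Ckm (0.19 ± 0.047, adjusted p = 0.0428), with 0 rising. Of these 7 genes, Mylpf was called after median-ratio scaling, Casq1, Myl1 and Myoz1 after quantile normalization, and Mylpf, Casq1 and Myl1 after rescaling without mitochondrially encoded genes. With each mouse left out in turn, Mylpf passed in all 17. Casq1 passed in 12 (adjusted p up to 0.0841; not without Control replicates 1 or 3, or LLC + rFibcd1 replicates 1, 2 or 3). Myl1 passed in 11 (adjusted p up to 0.121; not without Control replicates 1, 3 or 5, or LLC + rFibcd1 replicates 1, 2 or 3). Ckm passed in 8 (adjusted p up to 0.135; only without Control replicate 2, or Control + rFibcd1 replicates 1, 2, 3 or 4, or LLC replicates 2 or 3, or LLC + rFibcd1 replicate 4). Tnnt3 passed in 7 (adjusted p up to 0.146; only without Control replicate 2, or Control + rFibcd1 replicates 1, 2 or 3, or LLC replicates 2 or 3, or LLC + rFibcd1 replicate 1). Myoz1 passed in 6 (adjusted p up to 0.0987; only without Control replicate 4, or Control + rFibcd1 replicates 1, 3 or 4, or LLC + rFibcd1 replicates 1 or 4). Tcap passed in 3 (adjusted p up to 0.113; only without Control + rFibcd1 replicates 1 or 4, or LLC + rFibcd1 replicate 1). With the 9 mice alone only Mylpf of the 7 passed, and with no filter only Mylpf and Casq1. Tnnt3, Myoz1, Tcap and Ckm did not pass with no expression trend, nor Tcap with the B cell covariate. LLC against Control called 7 of the 14 fast fiber and 11 of the 17 myofiber structure genes lower, against 6.02% of all genes. LLC + rFibcd1 against LLC, which called 0.113% of all genes, called 0 in both lists. The tumor-bearing groups were thus not shown to differ in these lists, and Mylpf averaged 3940 TPM in LLC.

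Genes of protein breakdown and stress were mostly not called. Of the 15 muscle ubiquitin ligase genes, Asb2 alone rose (2.07% of all genes did), which is no result about the list. It encodes a substrate receptor of a cullin ligase that acts on desmin and filamin in muscle, and was at 133, 123, 161, 120.0 and 155 TPM in Control, 103, 128 and 103 TPM in LLC and 209, 194, 193 and 202 TPM in LLC + rFibcd1. Its log2 change was 0.53 ± 0.13 (SE; adjusted p = 0.0349) from Control and 0.84 (adjusted p = 0.0383) from LLC. The atrophy ligases Fbxo32 (atrogin-1) and Trim63 (MuRF1) were at 92.5, 70.5, 73.7, 87.2 and 93.1 and 101, 115, 80.2, 81.1 and 119 TPM in Control, and at 174, 96.3, 109.6 and 113 and 193, 116, 124 and 198 TPM in LLC + rFibcd1. Their changes of 0.53 ± 0.16 and 0.64 ± 0.22 did not pass (adjusted p = 0.0836 and 0.117), although Fbxo32 did not overlap. Cdkn1a, the cell cycle inhibitor p21 and a p53 target, was at 18.2, 15.5, 17.5, 13.3 and 14.8 TPM in Control and 47.5, 42.7, 30.7 and 43.1 TPM in LLC + rFibcd1. It rose by 1.31 ± 0.32 (adjusted p = 0.0383), with 15.99 to 24.6 TPM in LLC. Atf5, a factor of the mitochondrial stress response, rose by 0.40 ± 0.083 (adjusted p = 0.019). Of 16 autophagy genes, 2 rose (2.07% of all genes did). Gabarap, which lies on autophagosomes, rose by 0.26 ± 0.05 (adjusted p = 0.0127) and the mitophagy receptor Bnip3 by 0.38 ± 0.094 (adjusted p = 0.041), the highest Bnip3 (411 TPM) being in replicate 1. Gabarap passed in all 17 fits that left out a mouse. Atf5 passed in 14 (adjusted p up to 0.0599; not without Control replicate 4, or LLC + rFibcd1 replicates 2 or 3). Asb2 passed in 10 (adjusted p up to 0.0921; not without Control replicates 1, 2 or 4, or LLC + rFibcd1 replicates 1, 2, 3 or 4). Bnip3 passed in 9 (adjusted p up to 0.0913; not without Control replicates 1, 2, 3, 4 or 5, or Control + rFibcd1 replicate 5, or LLC replicate 1, or LLC + rFibcd1 replicate 3). Cdkn1a passed in 8 (adjusted p up to 0.0933; only without Control + rFibcd1 replicates 1, 2, 3, 4 or 5, or LLC replicates 1, 2 or 3). Asb2 and Bnip3 were called under none of the 3 rescalings, Gabarap only without mitochondrially encoded genes, and Atf5 under all but median-ratio scaling, with their directions kept. Bnip3 did not pass with the 9 mice alone, and with no filter Asb2, Bnip3 and Cdkn1a did not. Bnip3 also did not with no expression trend.

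A few genes of metabolism fell. Gpam, the mitochondrial acyltransferase that begins glycerolipid synthesis, was at 142, 113, 126, 179 and 108 TPM in Control and 84.1, 78.1, 75.01 and 68.6 TPM in LLC + rFibcd1. It fell by 0.78 ± 0.15 (SE; adjusted p = 0.0144), with 86.1 to 119.7 TPM in LLC and 92.7 to 144 TPM in Control + rFibcd1. Pfkfb1, which sets the level of the glycolytic activator fructose 2,6-bisphosphate, was at 24.9, 23.8, 22.7, 26.8 and 24.5 TPM in Control and 14.6, 16.9, 17.1 and 15.4 TPM in LLC + rFibcd1, and fell by 0.59 ± 0.11 (adjusted p = 0.00806). It was at 16.9 to 24.6 TPM in LLC and 18.98 to 26.98 TPM in Control + rFibcd1, and was the only call of 17 glycolysis and glycogen genes, which is no result about the list. Of 31 nuclear genes of the respiratory chain, Ndufs1, Ndufa9 (both complex I) and Uqcrc2 (complex III) fell by 0.23 ± 0.055, 0.16 ± 0.041 and 0.17 ± 0.043 (adjusted p = 0.0387, 0.0443 and 0.0443), and the other 28 were not called (1.01% of all genes fell). In LLC against Control, which called 6.02% of all genes lower, 29 of the 31 were lower. In LLC + rFibcd1 against LLC, which called 0.113% of all genes, 1 of the 31 was called, higher. A difference between the tumor-bearing groups was thus shown for that gene alone, Ndufa2 of complex I, named after its value was seen. At an unadjusted p under 0.05 in that contrast were 26 of the 31, 0 of them lower, and 3025 of all 13305 genes. Tfam, the packaging factor of mitochondrial DNA, fell by 0.20 ± 0.049 (adjusted p = 0.0364), and Ppargc1a, the coactivator PGC-1alpha, was at 14.8 to 62.1 and 15.4 to 34.5 TPM (-0.48 ± 0.37, adjusted p = 0.477). Of 13 mitochondrially encoded genes, mt-Nd4l, which overlaps mt-Nd4, fell by 0.27 ± 0.053 (adjusted p = 0.0141). Gpam and Pfkfb1 passed in all 17 fits that left out a mouse and under each rescaling. Ndufs1, Ndufa9 and Uqcrc2 did not pass after median-ratio scaling and passed after quantile normalization, and without mitochondrially encoded genes only Ndufs1 of them passed. mt-Nd4l did not pass after median-ratio scaling or quantile normalization, where mt-Nd6 was the mitochondrially encoded gene called lower. With each mouse left out in turn, Ndufs1 passed in 9 (adjusted p up to 0.12; not without Control replicates 1, 3, 4 or 5, or LLC + rFibcd1 replicates 1, 2, 3 or 4). Ndufa9 passed in 5 (adjusted p up to 0.127; only without Control replicates 1 or 2, or Control + rFibcd1 replicate 1, or LLC replicate 3, or LLC + rFibcd1 replicate 1). Uqcrc2 passed in 4 (adjusted p up to 0.121; only without Control replicate 2, or Control + rFibcd1 replicate 1, or LLC replicates 1 or 3). Tfam passed in 11 (adjusted p up to 0.0871; not without Control replicates 3 or 4, or LLC + rFibcd1 replicates 1, 2, 3 or 4). mt-Nd4l passed in 16 (adjusted p up to 0.0526; not without LLC + rFibcd1 replicate 3). With the 9 mice alone Ndufs1, Ndufa9, Tfam and mt-Nd4l did not pass, and with no filter Ndufs1, Ndufa9, Uqcrc2 and mt-Nd4l did not. Ndufs1, Ndufa9 and Uqcrc2 did not pass with no expression trend or the B cell covariate, nor did Ndufa9 and Uqcrc2 with array weights.

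The remaining decreases named by size were in Cryba4, a beta crystallin, at 10.7, 10.6, 15.999, 12.5 and 11.02 TPM in Control and 5.82, 6.33, 6.48 and 8.37 TPM in LLC + rFibcd1 (0.76 ± 0.14 lower, adjusted p = 0.0078), in Mdga1, a membrane-anchored immunoglobulin-domain protein (0.74 ± 0.15 lower, adjusted p = 0.016), and in Fam196b (0.70 ± 0.18 lower, adjusted p = 0.0465). Cryba4 passed in all 17 fits that left out a mouse. Mdga1 passed in 15 (adjusted p up to 0.0613; not without LLC + rFibcd1 replicates 1 or 3). Fam196b passed in 4 (adjusted p up to 0.132; only without Control replicate 4, or Control + rFibcd1 replicates 1, 3 or 4). Mdga1, Fam196b and Itga7, described next, did not pass with the 9 mice alone, and Fam196b did not with no filter, array weights or the B cell covariate. Itga7, the laminin-binding integrin of muscle fibers, rose by 0.25 ± 0.055 (adjusted p = 0.0254), the only call of 12 integrin genes (2.07% of all genes rose), which is no result about the list. It passed in 12 (adjusted p up to 0.0687; not without Control replicates 1 or 5, or LLC + rFibcd1 replicates 1, 2 or 3) of the 17 fits and under none of the rescalings.

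Several lists of other cell types held 0 calls in limma, as 12 B cell, 8 plasma cell, 13 T cell, 9 MHC class II, 13 MHC class I and immunoproteasome, 16 proliferation and 14 cathepsin genes did. With 3.08% of all genes called, lists of this size would often hold none. Some of these genes passed the filter only through tumor-bearing mice. Of the members that did not, 11 of 12 B cell, 4 of 6 plasma cell, 8 of 8 T cell, 9 of 9 MHC class II, 11 of 12 MHC class I and immunoproteasome, 11 of 11 proliferation and 9 of 12 cathepsin genes were higher in LLC against Control, which called 29.7% of all genes higher. The same members held 0 calls in LLC + rFibcd1 against LLC by limma, which called 0.113% of all genes, so the tumor-bearing groups were not shown to differ in these lists. At an unadjusted p under 0.05 in that contrast, 4 B cell, 1 plasma cell, 5 T cell, 7 MHC class II, 8 MHC class I and immunoproteasome, 7 proliferation and 3 cathepsin genes were lower. Over all genes, 3025 of the 13305 passed that level in either direction. The B cell receptor gene Cd79a was at 28.7, 36.8, 7.51, 10.4 and 0.199 TPM in Control, 97.6, 90.6 and 110.4 TPM in LLC and 7.47, 52.6, 110.4 and 9.39 TPM in LLC + rFibcd1, so that replicates 2 and 3 of the last group were above all Control mice and replicates 1 and 4 were among them (adjusted p = 0.503). Cd3e of T cells was highest in replicate 3, at 4.86 TPM, against 0.173 to 1.82 TPM in Control. The median change of the B cell list was 0.74. With the level of that list as a covariate it was -0.011, which follows from adjusting the list for itself and is no result. A p above the threshold does not show that these genes were at the Control level. Markers of tissue beside the muscle varied within both groups, with the liver gene Alb at 0.221, 1.44, 32.01, 171 and 9.46 TPM in Control and 2.08, 2.57, 0.249 and 166 TPM in LLC + rFibcd1 and the adipocyte gene Adipoq at 26.4 to 175 and 35.4 to 203 TPM. Their part in the results above was not tested, except that with the mean log2(TPM + 1) of the B cell list as a covariate 413 genes were called.

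Also with 0 calls were 14 glucocorticoid receptor targets (median -0.056, and 0.0057 with array quality weights; Fkbp5 0.11 ± 0.29, adjusted p = 0.861), 7 metallothionein and zinc transport genes (Mt2 0.51 ± 0.34, adjusted p = 0.421), 20 fasting and PPAR targets (Pdk4 -0.33 ± 0.24, adjusted p = 0.466), 16 heat shock, 9 polyamine, 12 denervation and junction, 16 insulin and IGF and 17 ERK output genes. With each of the 3 rescalings 1 glucocorticoid receptor target was lower and 1 cathepsin gene higher, 1 insulin and IGF gene was lower after median-ratio scaling and after rescaling without mitochondrially encoded genes, and 1 denervation and junction gene was lower after the latter. Without calls here and under the rescalings were 12 white adipocyte, 5 brown adipocyte, 9 mesothelium and 9 liver genes. At an unadjusted p under 0.05, 2644 of the 13305 genes passed in the comparison.

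**Figure D5:**
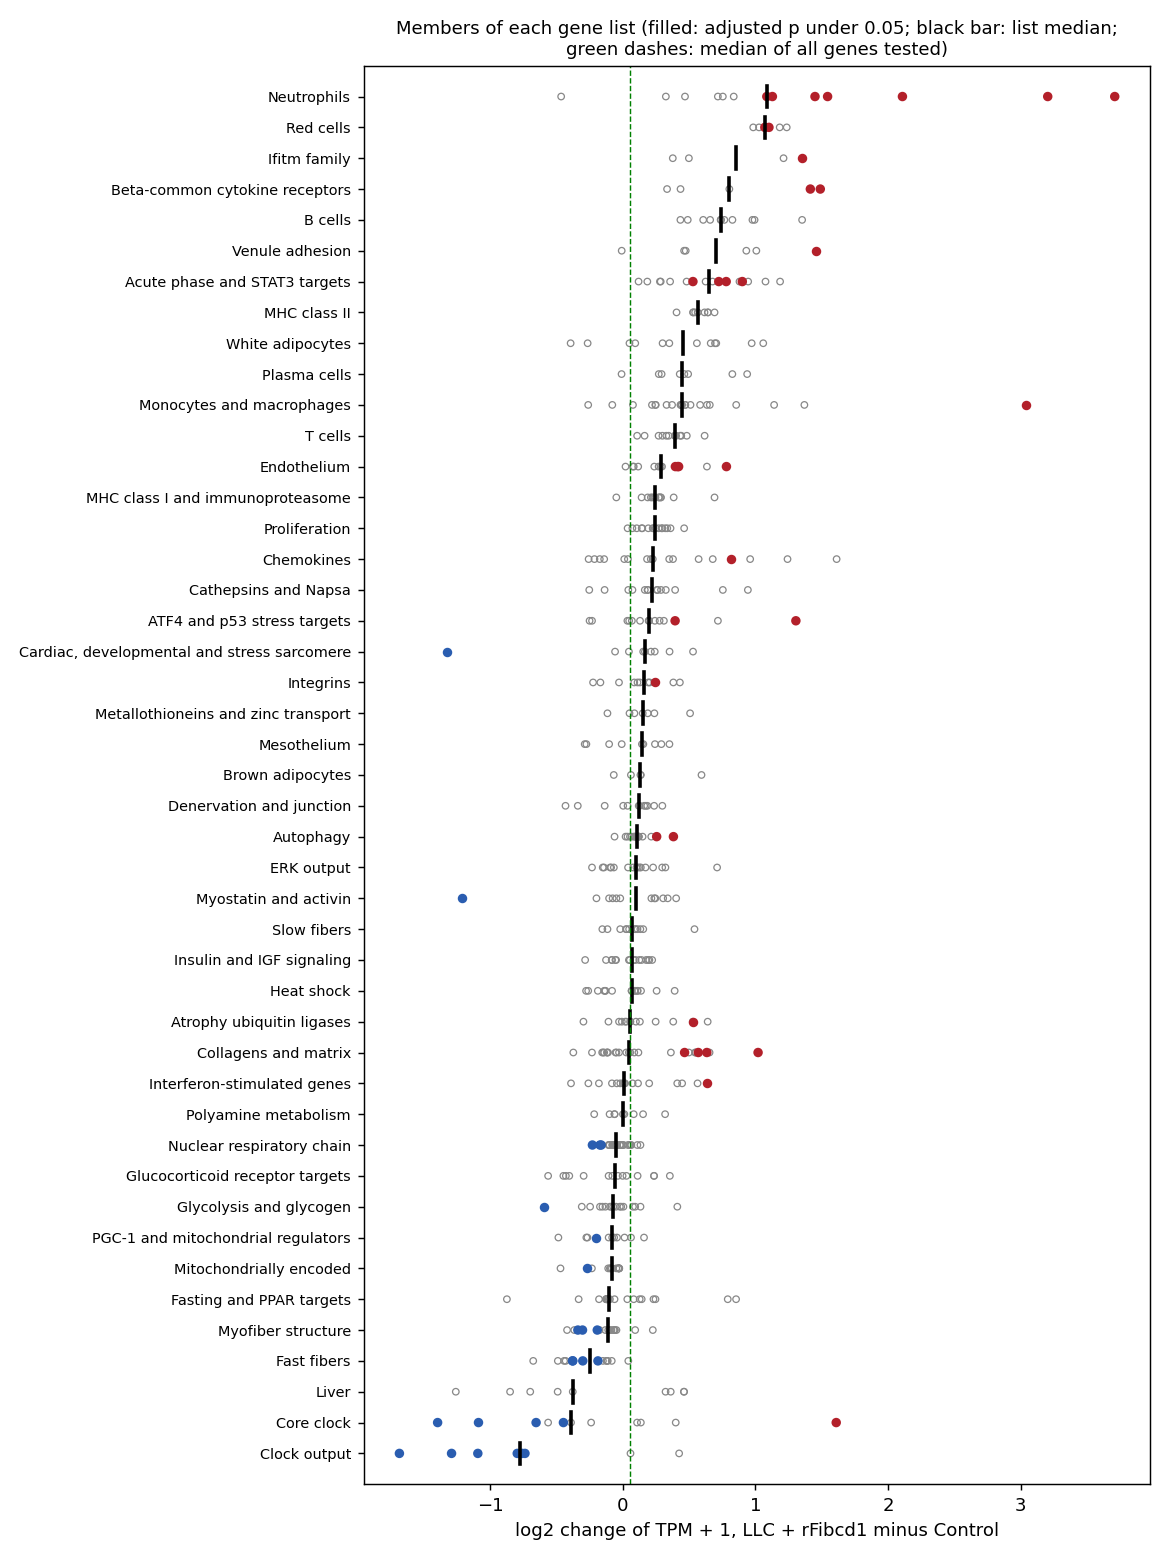
Log2 change of TPM + 1 from Control to LLC + rFibcd1 (horizontal axis) for the tested members of the 45 gene lists (rows, ordered by their median, the black bar). Filled points had an adjusted p under 0.05 and the green dashes mark the median of all genes, 0.059. Neutrophil genes reach farthest to the right, and the clock output list has its median farthest to the left, at -0.78.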

How the data were processed

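Diaphragm RNA of 17 mice was sequenced, and the 4 LLC + rFibcd1 and 5 Control mice were compared. The authors trimmed and filtered paired reads, aligned them to GRCm38 (mm10) in CLC Genomics Workbench and deposited TPM per gene symbol. TPM are relative to all transcripts of a library, so a shift in abundant transcripts moves all others. The sources differ on whether the library kit kept strand, so reads of overlapping and antisense genes may be mixed. Symbols were matched by name to the GENCODE annotation of GRCm38 (94.6% matched), which gave gene positions, and upstream sequences came from RefSeq (GRCm38.p6). Low TPM values are close to multiples of 1 read (79.6 to 81.6% within 0.02 of a whole read), which gave the depth. Since not all are whole, no count test was run.

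The filter kept genes at 1 TPM or more in 3 or more of the 17 samples. log2(TPM + 1) was fitted with limma 3.58.1 in R 4.3.3, with 4 group means over all 17 mice (13 residual degrees of freedom), an intensity trend and Benjamini-Hochberg adjustment over 13305 genes at 0.05, in place of the authors' rank test, which was run as an alternative. Fold changes on this scale understate those of low genes. The script was tested on simulated data. The rescalings were median-ratio scaling, quantile normalization and removal of mitochondrially encoded genes. Other alternatives were a pseudocount of 0.1, no filter or a filter of 5 TPM, no trend, array weights, a B cell covariate, a replicate block, the 9 mice alone and leaving out each mouse.

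The comparison and the 45 lists were chosen with earlier results of these data known. Named genes were the 15 largest increases and decreases among called genes without overlap between groups (leaving out predicted genes and immunoglobulin and T cell receptor segments). Added to these were the called ones among the 4 members of each list with the smallest p, its defining markers, and Fibcd1. Per2 and other members beyond these were named after their values were seen.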

Additional observations from a re-analysis of the deposited data

Results flagged for a closer look

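In 16 of the 222 groups of 4 or 5 mice examined (111 genes), 1 mouse lay far from the others relative to the range of the group, where chance gives about 1 in 20. Control replicate 3 was such a mouse in 5 genes. It was high for Chil3 (0.793 TPM, the others at 0.146 to 0.244 TPM), Col4a1 (76.8 TPM) and Rsad2 (4.95 TPM), and low for Per3 (8.42 TPM, the others at 12.8 to 14.8 TPM) and Tcap (5589.8 TPM).

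LLC + rFibcd1 replicate 2 was low for the clock outputs Dbp (47.0 TPM, the others at 70.1 to 73.4 TPM) and Tef (32.2 TPM, the others at 45.9 to 47.5 TPM), and high for the macrophage marker Adgre1 (10.05 TPM). Replicate 1 of that group was high for Nr1d2 (38.5 TPM), Bnip3 (411 TPM) and Itga7 (76.2 TPM), and replicate 3 was low for mt-Nd4l (14908 TPM).

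Among the other Control mice, replicate 1 was high for the neutrophil receptor Csf3r (1.202 TPM), replicate 4 low for Timp1 (1.71 TPM) and replicate 5 low for Bhlhe41 (7.74 TPM). Ly6g was at 0.0422 TPM in replicate 1 and listed at 0 in the others. In that library 1 TPM is 25.1 reads in a gene of 1000 bases, so for a gene of that length this is about 1 read.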

How the results depend on the processing

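None of the 70 called genes examined changed direction under any setting run. The 410 calls (276 higher, 134 lower) became 260 (181 and 79) with the 9 mice alone, 173 (127 and 46) with a replicate block, and 0 with Dunn's test after adjustment, where 1688 genes had an unadjusted p under 0.05. The cause was not tested. Same-numbered mice of the compared groups had correlations of -0.173, 0.485, -0.171 and 0.355 between their deviations, and 1 of the 4 LLC + rFibcd1 mice correlated best with the Control mouse of its own number, so the numbers do not pair the mice. Quantile normalization gave 143 higher and 223 lower genes, and rescaling without mitochondrially encoded genes 174 higher. These rescalings set the median of all genes to -0.023 and 0.0178 in place of 0.0594. Leaving out a mouse gave 167 to 597 calls, 113 to 427 higher and 54 to 170 lower. Of 70 called genes, 36 to 70 kept their call when a mouse was left out, 49 with the 9 mice alone, 37 with the replicate block, 50 with no filter, 54 with median-ratio scaling, 58 with quantile normalization and 60 with the B cell covariate. The depth of 50.8 to 54.6 M reads leaves genes under 1 TPM uncertain.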

Other observations

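Genes outside the lists and outside the rule for named genes, chosen after their values were seen, add signaling and vessel genes to the comparison of LLC + rFibcd1 with Control (limma, adjusted over all genes tested; log2 change ± SE; means over 4 and 5 mice). Fzd9, a Wnt receptor, rose by 1.03 ± 0.17 (adjusted p = 0.00614), from 16.9 to 36.3 TPM. Lrrc30, a leucine-rich repeat gene, rose by 1.24 ± 0.24 (adjusted p = 0.0127), from 52.8 to 123 TPM with 52.2 TPM in LLC, and Tmem171 by 1.18 ± 0.16 (adjusted p = 0.00211). Eng, endoglin of endothelium, rose by 0.68 ± 0.14 (adjusted p = 0.0153), and Ly6a, Sca-1 of vessels and progenitors, by 0.73 ± 0.12 (adjusted p = 0.0048). Acer2, a ceramidase of the Golgi, rose by 0.95 ± 0.16 (adjusted p = 0.00614), and Apod, apolipoprotein D, by 0.70 ± 0.087 (adjusted p = 0.00185). Mean TPM in Control, LLC and LLC + rFibcd1 was 127.9, 237.5 and 214.2 for Ly6a and 4.24, 8.71 and 8.98 for Acer2. It was 14.5, 22.4 and 24.5 for Apod and 50.5, 68.0 and 81.1 for Eng. Tmem171 averaged 0.97, 1 and 3.44 TPM in these groups, and Fzd9 23.7 TPM in LLC.

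Among the decreases of the same kind, Frzb, a secreted Wnt antagonist, fell by 0.62 ± 0.15 (adjusted p = 0.0399), and Map2k6, a kinase upstream of p38, by 0.50 ± 0.11 (adjusted p = 0.0261). Nrip1, a corepressor of nuclear receptors in metabolism, fell by 0.57 ± 0.13 (adjusted p = 0.0298), and Coq10b, a coenzyme Q binding protein of mitochondria, by 0.87 ± 0.19 (adjusted p = 0.0243), from 43.1 to 22.5 TPM with overlap between the groups. Lrrn1, a leucine-rich repeat membrane protein, fell by 0.60 ± 0.078 (adjusted p = 0.00211). Mean TPM in Control, LLC and LLC + rFibcd1 was 11.48, 5.911 and 7.095 for Frzb and 6.52, 4.96 and 4.31 for Map2k6. It was 3.41, 2.65 and 1.95 for Nrip1 and 14.3, 10.9 and 9.15 for Lrrn1. Coq10b averaged 34.9 TPM in LLC.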
